A study of Rattus norvegicus with 4 samples.

Results

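Hairpins that the authors predicted themselves, rather than took from the reference of rat miRNA precursors, were described in small RNA libraries from rat exosomes, the small vesicles that cells release. The members were all entries of the tag files whose precursor name marks a prediction, and entries with the same hairpin sequence were taken as 1 hairpin in every library. This gave 496 predicted hairpins of 798 in all, and the other 302 were named precursors. Sprague-Dawley (SD) rats aged 4 weeks gave the adipose tissue for Exo-AT, whose vesicles were shed by minced explants cultured for 3 days in a spinner flask at 100 rpm. Exo-ADSCs are the vesicles of adipose-derived stem cells at passage 3, cultured for 3 days without serum. No genotype, agent or pooling of animals is given for either group, and both shared the same basal medium with penicillin and streptomycin. Each group has 2 libraries, and tag counts were used for 3 of the 4, namely Exo-ADSCs replicate 2, Exo-AT replicate 1 and Exo-AT replicate 2, called ADSC2, AT1 and AT2 below after their group and replicate number. Whether replicates were taken from different animals or cultures is not said, and a p-value here therefore covers sample-to-sample spread that may be technical.

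A miRNA precursor is a single RNA strand folded back on itself into a hairpin. Drosha cuts it out of a longer transcript and Dicer removes the loop, so a true precursor gives short RNAs with a fixed start, mostly from 1 arm, which Argonaute then holds. Prediction programs look for genomic sequence that can fold in this way under aligned reads, and a predicted hairpin is therefore a candidate and not an established gene. A tag here is a distinct read sequence, and its count is the number of reads with that sequence. Fewer vesicles of one source and less of an RNA in each vesicle cannot be told apart in these bulk libraries.

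The hairpins that held most of the predicted counts are shown first, because the results turn on how their reads align. Each name gives the chromosome and the authors' running number, and the files used here give no start, end, strand or gene annotation for a hairpin. Capitals in a hairpin mark the stretch under its most counted tag, and a capital in a tag marks the base that differs from the hairpin. All are written 5′ to 3′ as DNA letters. The 4 leading hairpins of ADSC2 were as follows.
chr11_5697: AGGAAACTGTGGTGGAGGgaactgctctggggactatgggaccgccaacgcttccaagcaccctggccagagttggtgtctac
leading tag of chr11_5697: aggaaactCtggtggagg
chr2_41328: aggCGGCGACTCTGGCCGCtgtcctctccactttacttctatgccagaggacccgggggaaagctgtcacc
leading tag of chr2_41328: cggcgactctggAcgc
chr10_1724: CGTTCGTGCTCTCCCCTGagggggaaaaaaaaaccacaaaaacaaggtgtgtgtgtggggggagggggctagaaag
leading tag of chr10_1724: cgttcgCgctctcccctg
chr13_10051: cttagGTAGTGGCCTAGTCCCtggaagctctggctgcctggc
leading tag of chr13_10051: gtagtggcTtagtccc

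In AT1 the leading hairpins included 3 that were listed in no other library.
chr2_21618: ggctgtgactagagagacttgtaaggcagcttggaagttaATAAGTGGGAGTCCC
leading tag of chr2_21618: ataagtgggagGccc
chr14_6521: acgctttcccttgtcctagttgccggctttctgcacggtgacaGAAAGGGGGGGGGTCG
leading tag of chr14_6521: gaaaggggggCggtcg
chr2_21485: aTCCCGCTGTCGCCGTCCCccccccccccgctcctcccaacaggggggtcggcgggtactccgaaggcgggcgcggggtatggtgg
leading tag of chr2_21485: tcccgcCgtcgccgtccc

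In AT2 the 4 leading hairpins were as follows, and the first of them was second in AT1.
chr5_56436: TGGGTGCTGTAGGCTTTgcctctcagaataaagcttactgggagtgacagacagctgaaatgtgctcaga
leading tag of chr5_56436: acCgggtgctgtaggcttt
chr2_41589: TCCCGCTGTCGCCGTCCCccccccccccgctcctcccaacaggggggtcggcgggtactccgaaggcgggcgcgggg
leading tag of chr2_41589: tcccgcCgtcgccgtccc
chr3_48532: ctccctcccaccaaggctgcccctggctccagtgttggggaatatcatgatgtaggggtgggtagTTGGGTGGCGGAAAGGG
leading tag of chr3_48532: tGgggtggcggaaaggg
chr8_69167: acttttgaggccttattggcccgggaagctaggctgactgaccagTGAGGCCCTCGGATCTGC
leading tag of chr8_69167: tgaggccctcggatcGgc

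A substitution is written below with the hairpin's base first, then the position counted from 1 at the 5′ end of the tag, then the tag's base. The leading tags above carried G9C on chr11_5697, C13A on chr2_41328, T7C on chr10_1724 and C9T on chr13_10051. They carried T12G on chr2_21618, G11C on chr14_6521 and T7C on chr2_21485. They carried T3C on chr5_56436, whose tag starts 2 bases before the hairpin, T7C on chr2_41589, T2G on chr3_48532 and T16G on chr8_69167. Each of these 11 leading tags thus differed from its own hairpin at 1 base. In each of the 11, the stretch under the tag also lay at the 5′ or 3′ end of the hairpin or within 5 bases of it. The tags were compared with RefSeq miRNAs only. Whether they match ribosomal RNA, 7SL RNA or other abundant RNAs more closely than their hairpins was not tested, since such sequences and the genome around the hairpins were not used here, and the counts below are therefore counts assigned to a hairpin and not counts of a miRNA.

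The libraries differed widely in depth, with 715114 counts assigned to hairpins in ADSC2, 15200 in AT1 and 181049 in AT2. Of these, 617910, 6066 and 45025 fell on predicted hairpins. The limit that a count of 0 leaves, 3 counts, was 4.20, 197 and 16.6 CPM (counts-per-million) of assigned counts in the 3 libraries. It does not allow for the rule that a listed tag had at least 2 reads, and may therefore be too low. Both Exo-AT files carry the same sample name inside. All 597 tags that AT1 has only on named hairpins were also listed in AT2, each with at least as many counts there, against 267 (44.7%) found in ADSC2. The 2 Exo-AT libraries still differed by more than counting error (chi-square 1326 on 70 degrees of freedom over 71 named hairpins), which does not show that they are separate samples. They were kept as 2, as labelled, and every spread and p-value below rests on them. As a check of the labels, the mesenchymal miRNAs fixed for it (miR-143, miR-145, miR-199a, miR-214 and miR-21) summed to between 15.8% and 23.2% of named counts, with miR-145 at 0 in AT1. The 5 adipocyte-related miRNAs (miR-378a, miR-103, miR-107, miR-30a and miR-26a) summed to 0.9002% in ADSC2 and to 3.01% and 2.87% in Exo-AT. Their directions were mixed. In the edgeR comparison below, the log2 fold change, Exo-AT minus Exo-ADSCs, was -1.79, -2.62, -2.62, 1.97 and 2.30 in the same order, none of them called. The higher sum in Exo-AT thus came from miR-30a and miR-26a. The erythroid list summed to 3.35%, 5.10% and 16.7%, with miR-144 at 0 in AT1, the endothelial miR-126a to 0.0329%, 0.383% and 0.510%, and the leukocyte list to at most 0.0941%. The epithelial list summed to 0.221%, 0.175% and 0.103%, and the neural list to 0.0134%, 0.460% and 0.0640%. Skeletal muscle and liver lists reached at most 0.0175% and 0.0657%. The part of these other sources in the results on predicted hairpins was not tested.

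The lists of predicted hairpins were made in 2 numberings, 1 for both replicate 2 libraries and another for AT1. ADSC2 and AT2 used 1 running numbering, from 248 to 78725, and all 239 names they shared pointed to the same sequence. AT1 had its own numbering, from 248 to 41027, and the single name it shared with each of the others pointed to another sequence. ADSC2 listed 357 predicted hairpins, AT1 listed 89 and AT2 listed 313. By sequence, 230 were common to both replicate 2 libraries, which is 64.4% of the first list and 73.5% of the second. The Exo-AT libraries had 33 in common, 37.1% of the replicate 1 list and 10.5% of the replicate 2 list. ADSC2 and AT1 had 24 in common, 6.72% and 27.0% of their lists, and these 24 were in all 3 libraries. AT1 is the only replicate 1 library used, so its replicate number and the library itself cannot be told apart. For named precursors, by contrast, all 147 of AT1 were also listed in AT2.

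A hairpin outside a library's list has no count there whatever its reads, so an absence across the 2 numberings is not a measured 0. The hairpins chr2_21485 and chr2_41589 show this. The shorter lies within the longer, they have the same leading tag, and that tag had 142 counts in AT1 and 1185 in AT2, yet matching by sequence keeps them apart. Joining hairpins that overlap by at least 40 identical bases on 1 chromosome raised the number common to the Exo-AT libraries from 33 to 41. Of the 392 predicted tags of AT1, 259 (66.1%) were listed in AT2 and 113 (28.8%) in ADSC2. On the 33 hairpins that both Exo-AT libraries list, AT2 held 168 of 169.

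**Figure D1:**
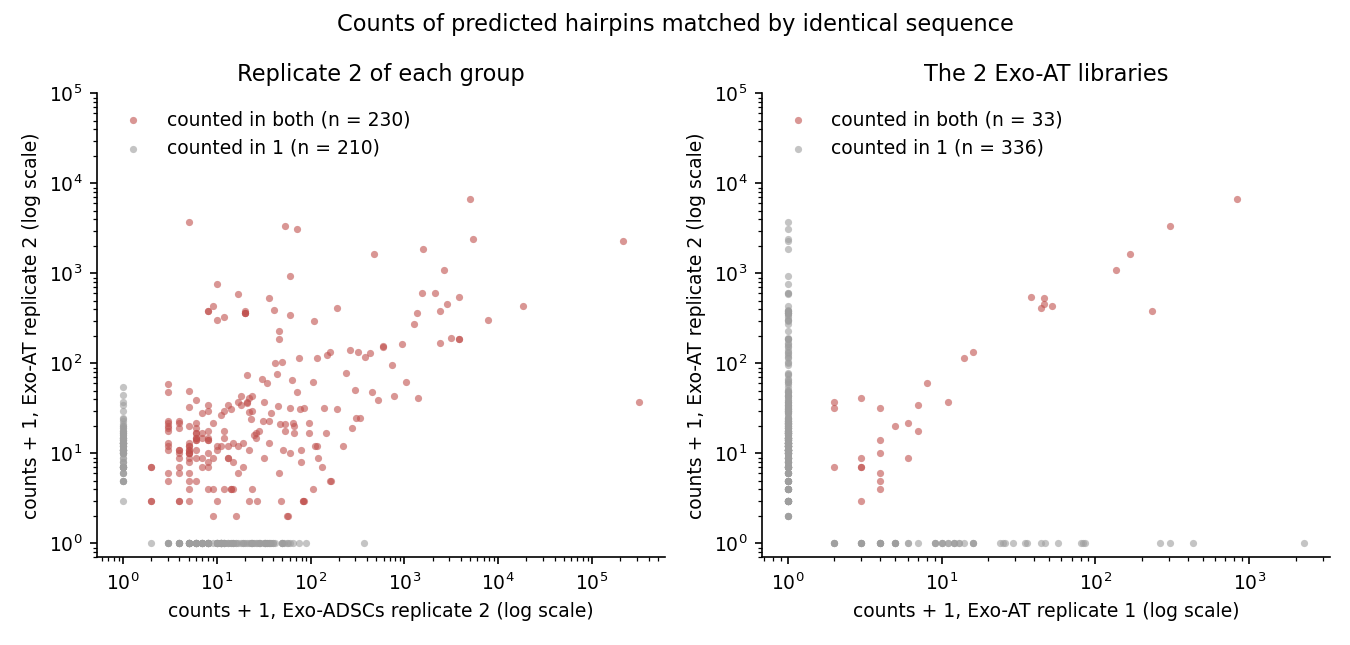
Counts of predicted hairpins matched by identical sequence, as counts plus 1 on log axes, 1 point per hairpin. The left panel sets ADSC2 (x) against AT2 (y), with 230 hairpins counted in both, and the right panel sets AT1 (x) against AT2 (y), with 33 counted in both and a column of hairpins that only AT2 lists.

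The lists were also compared at equal depth with the 89 hairpins of AT1. At 15200 assigned counts, the expected number of predicted hairpins was 141 in ADSC2 and 219 in AT2. At 6066 predicted counts it was 98.8 in ADSC2 and 252 in AT2. These expected numbers count a hairpin on any read, whereas the tags listed in AT1 each had at least 2 reads, so they are too high beside the 89. The list of AT1 was also made in another numbering. Whether AT1 lists fewer hairpins than depth alone would give cannot be decided from them. Few hairpins were counted deeply. The median was 14, 8 and 14 counts per hairpin, and 215, 40 and 224 hairpins had at least 10 counts. At least 1000 counts were reached by 21 hairpins in ADSC2, 1 in AT1 and 9 in AT2.

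The predicted counts of ADSC2 lay almost wholly on a pair of hairpins. chr11_5697 held 317318 counts, 51.4% of the predicted counts (Wilson 95% interval 51.2 to 51.5), and chr2_41328 held 212443, so that the pair made up 85.7%. In AT1 the first hairpin, chr2_21618, held 37.4% (36.2 to 38.6) and the first pair 51.0%. In AT2 the first hairpin, chr5_56436, held 15.0% (14.7 to 15.3) and the first pair 23.3%. The 10 leading hairpins held 94.0%, 82.7% and 60.4% in the same order. By all reads, predicted counts were thus most evenly spread in AT2. With tags of 20 to 25 nt alone the leading hairpin held 16.99%, 29.2% and 21.3%, and ADSC2 was then the lowest. Intervals here and below cover counting error only, since the reads carry no molecular identifiers.

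Reads on predicted hairpins were shorter than the usual length of a miRNA in all 3 libraries. Whole miRNAs are mostly 21 to 23 nt long, and tags of these lengths made up 0.842% of predicted counts in ADSC2 (Wilson 95% interval 0.820 to 0.865), 3.45% in AT1 (3.02 to 3.93) and 6.38% in AT2 (6.16 to 6.61). On named hairpins of the same libraries the shares were 24.8%, 71.5% and 75.8%. Tags of 15 to 17 nt held 54.9%, 75.5% and 55.7% of predicted counts against 16.02%, 7.78% and 5.73% of named counts. The commonest length on predicted hairpins was 18 nt in ADSC2 and 15 nt, the shortest in the files, in both Exo-AT libraries. The mean was 17.1, 16.6 and 17.5 nt, against 19.8, 20.8 and 21.2 nt on named hairpins. Among tags that matched their hairpin exactly, the share at 21 to 23 nt was 9.75%, 6.46% and 9.19% on predicted hairpins and 24.5%, 68.3% and 73.2% on named ones. With 1 library against 2, there are 3 assignments and an exact permutation test cannot go below a one-sided p of 0.333, so these shares are given as descriptions.

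**Figure D2:**
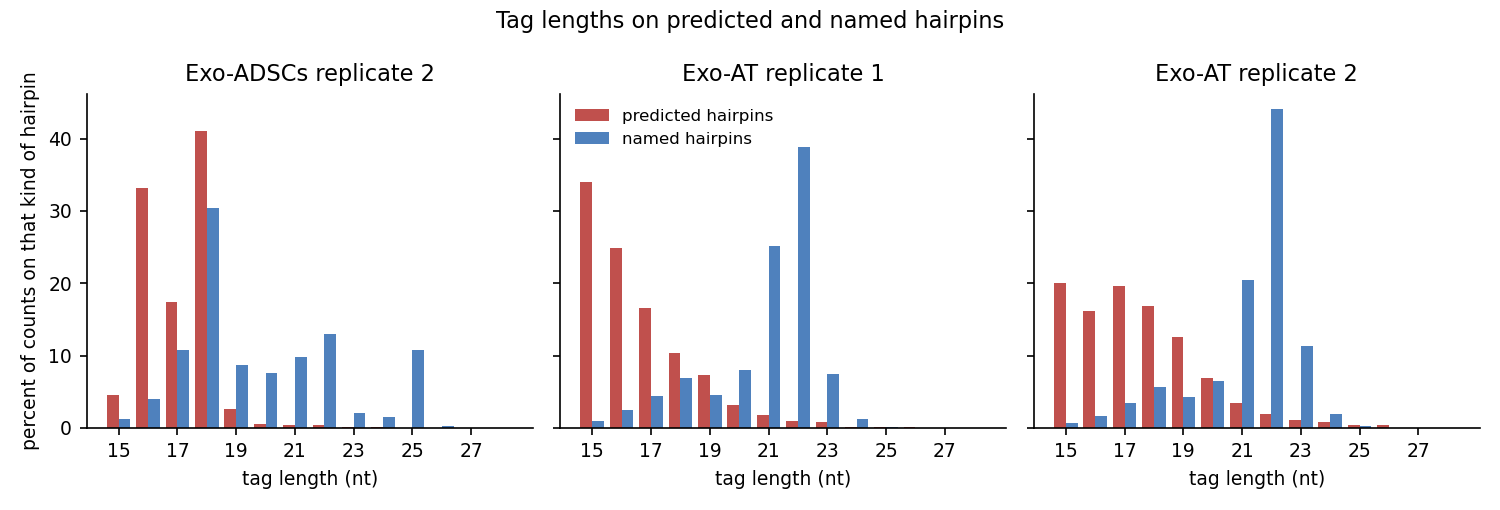
Tag lengths in nt (x) against the percent of counts on that kind of hairpin (y) in each of 3 libraries, with predicted hairpins in red and named hairpins in blue. Predicted hairpins peak at 18 nt in ADSC2 and at 15 nt in both Exo-AT libraries, whereas named hairpins peak at 22 nt in both Exo-AT libraries and at 18 nt in ADSC2.

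Most predicted counts came from tags that did not match their hairpin exactly. An alignment annotation, which marks a substitution, insertion or deletion, was present for 96.4% of predicted counts in ADSC2, 78.0% in AT1 and 66.9% in AT2. On named hairpins it was present for 23.1%, 19.6% and 22.9%. The position of the change also differed. miRNAs often carry a changed or added base at the 3′ end, and on named hairpins a substitution in the last 3 bases of the tag held 5.94%, 12% and 13.7% of counts. On predicted hairpins it held 1.09%, 1.10% and 6.56%, while a substitution further inside held 95.3%, 76.9% and 60.2%, against 15.2%, 7.55% and 9.05% on named hairpins. Counted by distinct tags instead of reads, 33.1%, 43.1% and 42.7% of predicted tags matched exactly, against 41.2%, 65.2% and 41.1% of named tags. The difference by reads was thus carried by the most counted tags, and by distinct tags it was smaller in ADSC2 and AT1 and not seen in AT2.

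**Figure D3:**
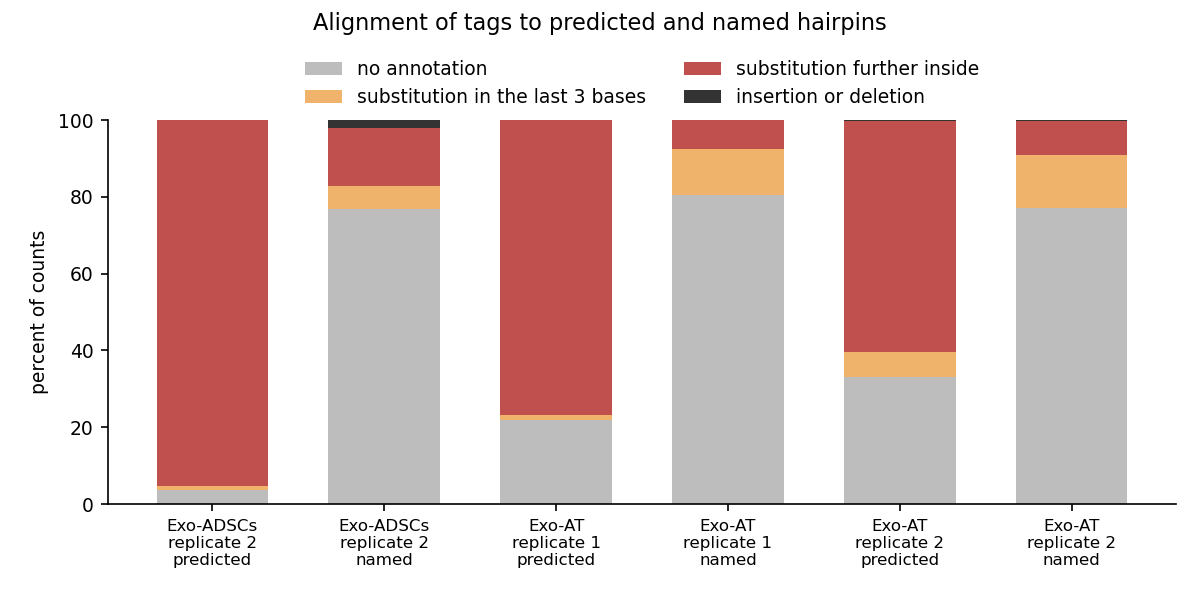
Percent of counts (y) by how the tag aligned to its hairpin, for predicted and named hairpins in each of 3 libraries (x), as stacked bars that sum to 100. Substitutions further inside the tag take 95.3%, 76.9% and 60.2% of predicted counts and at most 15.2% of named counts.

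On the most counted hairpins of ADSC2 and AT1 nearly all reads carried 1 and the same substitution. It was present in 99.5% of the counts of chr11_5697 in ADSC2, in 99.9% of chr2_41328 and 99.7% of chr10_1724 in the same library, and in 99.9% of chr2_21618 in AT1. chr10_1724 had the same substitution in 100% of its 51 and 436 counts in Exo-AT. chr5_56436 was more mixed, with its substitution in 66.8%, 89.5% and 87.2% of its counts in the 3 libraries. For chr11_5697 the leading tag of ADSC2 gave only 3 of the 36 counts in AT2. Among the 10 leading hairpins of each library, the leading tag carried a substitution in 6, 6 and 7, and matched exactly in the others, such as chr10_3824 and chr14_12634. Of hairpins with at least 10 counts, 1 substitution covered at least 90% of the counts in 18 of 215, 7 of 40 and 26 of 224 predicted hairpins. These few hairpins held 91.4%, 51.7% and 31.5% of all predicted counts. Among named hairpins it was so in 6 of 124, 0 of 62 and 7 of 176, which held at most 0.119% of named counts.

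The leading tag lay at an end of the hairpin far more often on predicted than on named hairpins. With at least 10 counts, it reached the first or last base in 155 of 215 predicted hairpins in ADSC2 (72.1%), 26 of 40 in AT1 and 181 of 224 in AT2 (80.8%). On named hairpins it did so in 10 of 124, 0 of 62 and 5 of 176. Named precursors are listed with flanking bases around the mature arms, and how the ends of predicted hairpins were set is not given in the sources used here. The tags on predicted hairpins were also richer in G and C, at 61.5%, 64.1% and 66.6% of bases against 48.8%, 46.0% and 47.7%. Many miRNAs begin with U, and tags that begin with T held 44.2%, 67.4% and 70.5% of named counts but 3.42%, 18.3% and 26.1% of predicted counts. The 5′ arm held 94.5%, 30.4% and 54.2% of predicted counts, and the leading pair of ADSC2 is read from that arm.

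Predicted hairpins were short and weakly folded beside named precursors. Their median length was 61 nt (range 35 to 97, n = 496) against 86 nt (59 to 139, n = 302), and 117 (23.6%) were under 50 nt, a length no named precursor had. The median minimum free energy computed with RNAfold was -19.8 kcal/mol against -38.1, and -0.324 against -0.437 kcal/mol per nt. The median share of paired bases was 65.1% against 72.5%. GC content of the hairpins themselves was close, with medians of 51.4% and 50%. A single loop was predicted for 94.6% and 95.03%, so both kinds were drawn as simple hairpins. Hairpins of a kind are not independent replicates, and the authors' prediction may have used length and folding, so no test was made.

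**Figure D4:**
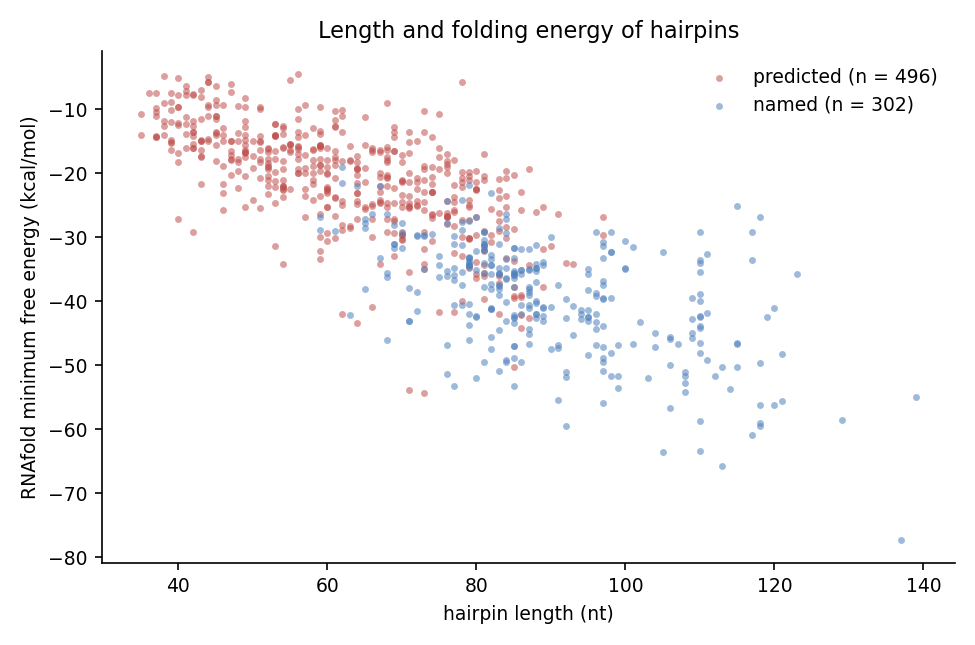
Hairpin length in nt (x) against RNAfold minimum free energy in kcal/mol (y), 1 point per hairpin, with 496 predicted hairpins in red and 302 named precursors in blue. Predicted hairpins lie between 35 and 97 nt and mostly above the named ones, with a median of -19.8 against -38.1 kcal/mol.

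A few predicted hairpins had reads like those of a miRNA. The pattern sought was that at least 50% of counts were 20 to 24 nt long, at least 50% matched exactly and at least 50% had the same start, in hairpins with at least 10 counts. It was chosen after the data were seen. The pattern was met by 16 of 215 predicted hairpins in ADSC2, 2 of 40 in AT1 and 50 of 224 in AT2, which is 7.44%, 5.00% and 22.3%. Named precursors met it in 58 of 124, 55 of 62 and 126 of 176, or 46.8%, 88.7% and 71.6%. The predicted hairpins that met it held 0.103%, 0.874% and 3.11% of predicted counts. With reads from both arms as well, 2, 1 and 3 predicted hairpins remained, against 19, 10 and 35 named ones.

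In both replicate 2 libraries 4 predicted hairpins met the pattern, namely chr12_8341, chr1_29143, chr3_45065 and chr3_48327. chr12_8341, a hairpin of 92 nt, had 20 counts in ADSC2 and 35 in AT2, with a mean tag length of 22.2 and 22.5 nt. All of its tags aligned to it alone in both libraries. chr1_29143 had 23 and 29 counts, with mean lengths of 22.1 and 20.7 nt, and neither hairpin was listed in AT1. chr3_45065 and chr3_48327 shared most of their reads with named miRNAs, as described next. A further hairpin, chr8_70237, met it in both Exo-AT libraries with 10 and 36 counts, all of them exact and all with the same start.

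Some predicted hairpins contained a miRNA that already has a name. Of 693 mature rat miRNAs in RefSeq (table of assembly GRCr8), a whole sequence lay inside 2 of the 496 predicted hairpins. miR-103-3p, which belongs to the miR-103/107 family linked to lipid and glucose metabolism, lay in chr10_404, and miR-130a-3p, known as a repressor of the adipogenic factor PPARγ, lay in chr3_48327. In both the miRNA began at the first base of the hairpin. Their sequences follow, with the seed, bases 2 to 8, in capitals.
rno-miR-103-3p: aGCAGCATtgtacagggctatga
rno-miR-130a-3p: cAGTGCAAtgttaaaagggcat

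The seeds differ, so the pair would not be grouped into 1 family. chr10_404 had 83, 3 and 31 counts in ADSC2, AT1 and AT2. Tags that were also assigned to mir-103-1, mir-103-2 or mir-107 gave 86.7%, 100% and 100% of them. chr3_48327 had 138, 1 and 31 counts, of which 97.1%, 100% and 100% came from tags also assigned to mir-130a. The reads of such tags were divided between the places they aligned to, so these counts are not independent of the named miRNAs. chr3_45065, with 192, 43 and 417 counts, took 90.1%, 67.4% and 68.1% of them from tags of mir-199a, a miRNA of mesenchymal cells. In all, 12, 7 and 7 predicted hairpins had at least 1 tag in common with a named precursor, and such tags gave 0.0948%, 0.610% and 0.886% of predicted counts. Sharing among the predicted hairpins themselves was commoner, with tags on several of them giving 2.67%, 5.09% and 11.9% of predicted counts.

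A single set of reads could therefore appear as several predicted hairpins. chr1_36535, chr2_40768 and chr4_53360, named on 3 chromosomes, had the same leading tag of 19 nt without a substitution, with 575 counts credited to each in ADSC2. They had 3802, 3799 and 3148 counts there and 186, 188 and 190 in AT2. Identical hairpins under more than 1 name numbered 13, 8 and 14 in the 3 libraries. chr2_38341 had 3 names in each numbering, and chr14_6521 was named on chromosomes 14 and 1 in AT1.

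By chromosome the number of predicted hairpins was spread widely and the counts were not. In the replicate 2 libraries names fell on 21 chromosomes, with 12.3% and 14.9% of names on chromosome 1, and AT1 had 13.9% there, the largest share in each library. Chromosome 11 held 7 of 374 names in ADSC2 and 51.4% of its predicted counts, through chr11_5697. It held 0.262% in AT2, which lists 7 names there, and AT1 lists none. Chromosome 2 held 35.8%, 46.4% and 17.9% of predicted counts, led by chr2_41328, chr2_21618 and chr2_41589, a different hairpin in each library. Chromosome 5 held 1.27% in ADSC2 and 17.7% and 21.9% in Exo-AT, mostly through chr5_56436.

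The levels of the leading hairpins are given by library, since the lists decide where a value exists. chr11_5697 had 317318 counts in ADSC2 and 36 in AT2, or 443731 and 199 CPM, and is not listed in AT1. chr2_41328 had 212443 and 2286 counts in the same pair of libraries, or 297076 and 12626 CPM. The second thus stayed among the 10 leading hairpins of AT2, and the first did not. chr13_10051 had 7746 and 306 counts and chr10_3824 had 5331 and 2406. Most reads of chr10_3824 matched exactly, 89.4% and 92.9% of counts, unlike those of the hairpins above it. Its form in AT1, chr10_2204, is longer at both ends and had 263 counts, 95.1% of them exact.

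Other hairpins were high in AT2 and low in ADSC2. chr2_41589 had 3749 counts against 4, chr8_69167 had 3084 against 70, and chr7_68034 had 936 against 60. chr6_62654 had 1889 against 1587 counts, or 10434 against 2219 CPM, but 13887 against 16326 when scaled to named counts, so its direction flips with the scale. The leading tag of chr6_62654 lies within that of chr5_56436, and each differs from its own hairpin at 1 base (A5G and T3C). In AT1, chr2_21618 had 2268 counts, chr2_21485 had 429, chr14_6521 had 306 and chr13_5842 had 84, and none of these sequences is listed in the other libraries. chr13_5842 stood apart among them in that 92.9% of its counts were exact.

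Of the 24 hairpins listed in all 3 libraries, chr5_56436 was the most counted in Exo-AT. It had 5044 counts in ADSC2, 826 in AT1 and 6760 in AT2, or 7053, 54342 and 37338 CPM. chr3_48532 had 52, 304 and 3358 counts, or 72.7, 20000 and 18548 CPM, so both Exo-AT libraries stood far above Exo-ADSCs and close to each other. chr5_57841, a hairpin of 91.5% GC, had 478, 168 and 1643 counts, or 668, 11053 and 9075 CPM. chr8_71405, whose reads were mostly exact, had 35, 45 and 538 counts, or 48.9, 2961 and 2972 CPM. chr4_51003 had 7, 231 and 387 counts, or 9.79, 15197 and 2138 CPM, and here the Exo-AT libraries lay far apart.

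The opposite order was seen for chr10_1724, with 18447, 51 and 436 counts, or 25796, 3355 and 2408 CPM. chr7_68348 had 3782, 37 and 541 counts, or 5289, 2434 and 2988 CPM. chr2_38341 had 2814, 45 and 462 counts, or 3935, 2961 and 2552 CPM. chr14_12634 had 2644, 135 and 1094 counts, or 3697, 8882 and 6043 CPM, so on this scale it was higher in Exo-AT. Its reads were 93.6%, 100% and 94.8% exact, with 90.9%, 77.0% and 77.4% of counts in 1 tag of 17 nt. The leading pair is part of the total that these CPM are divided by in ADSC2, so levels were also taken as CPM of the counts on named hairpins. On that scale the hairpins of this and the previous paragraph other than chr14_12634 and chr5_56436 kept their order between the groups. Scaled to named counts, chr14_12634 stood at 27200, 14780 and 8043 and chr10_1724 at 189776, 5584 and 3205, so the direction for chr14_12634 flips with the scale and that for chr10_1724 does not. On the same scale chr5_56436 stood at 51891, 90431 and 49697, and the Exo-AT libraries then lay on both sides of Exo-ADSCs.

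**Figure D5:**
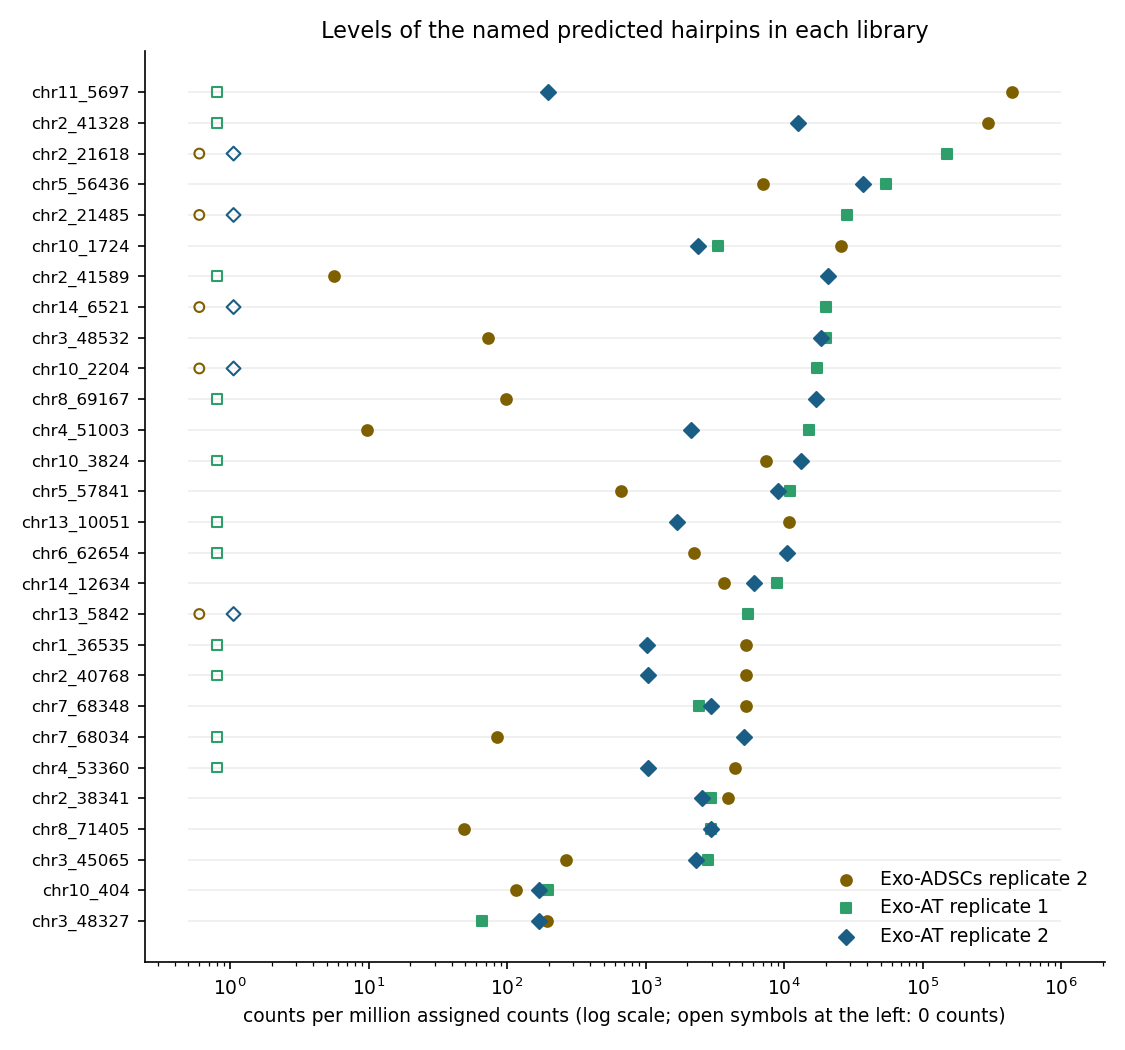
Levels of the 28 predicted hairpins named in the text (y) in CPM of assigned counts on a log axis (x), with 1 symbol per library and open symbols at the left for 0 counts. Hairpins such as chr3_48532 and chr8_71405 have both Exo-AT libraries above ADSC2, chr10_1724 has both below, and many hairpins have an open symbol because a library does not list them.

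The comparison of Exo-AT with Exo-ADSCs asked which predicted hairpins differ between vesicles of the tissue and of its stem cells. It called no hairpin higher and none lower, 0% of the 402 tested in either direction, in the quasi-likelihood test of edgeR, adjusted by Benjamini-Hochberg. Of the 402, 232 were predicted hairpins, and 264 predicted hairpins did not pass the filter on low counts. At an unadjusted p under 0.05 by edgeR there were 15 predicted hairpins (6.47%) and 18 named ones (10.6%), the named ones in both directions. Of the 15, 1 was higher and 14 were lower in Exo-AT. Some of the lower ones, such as chr11_5697, are not listed in AT1 and entered the fit at 0 there. The split is therefore not a measured direction. The smallest adjusted p of a predicted hairpin was 0.459 by edgeR. DESeq2 called 5 predicted hairpins and no named one, 4 higher (0.995% of the 402) and 1 lower (0.249%). Of these, chr2_21618, chr14_6521, chr2_21485 and chr10_2204, higher, have counts under these sequences in AT1 alone, and chr11_5697, lower, has none there. chr10_2204 and chr2_21485 are longer forms of chr10_3824 and chr2_41589, which the replicate 2 libraries list. By edgeR chr10_2204 alone stood at a log2 fold change of 12.5. With hairpins merged by overlap it was -2.35 for chr10_3824 and 8.67 for chr2_21485, neither of them called.

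Most of the predicted hairpins tested were missing from 1 of the Exo-AT lists. Of the 232 predicted hairpins tested, 187 (80.6%) had 0 counts in AT1, against 34 of 170 named ones, and 193 were at 0 in exactly 1 of the 2 Exo-AT libraries. The common dispersion was 1.73. Since Exo-ADSCs has 1 library, only AT1 and AT2 give the fit a spread. The median log2 fold change, Exo-AT minus Exo-ADSCs, was -1.13 for predicted and 0.59 for named hairpins beside -0.43 over all 402. With total-count scaling these medians were 2.22, 3.97 and 2.89, so both the direction and the size depend on the scale. A hairpin that a library does not list entered the fit as 0 there, which concerns predicted hairpins more than named ones. The medians, the dispersion and the lack of calls therefore also depend on how hairpins were listed and matched. How much they do was not tested.

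Among hairpins counted in all 3 libraries, the log2 fold change was -6.55 for chr10_1724 (SE 0.73), -4.34 for chr7_68348 (SE 0.69), -3.90 for chr2_38341 (SE 0.66) and 4.66 for chr3_48532 (SE 0.87). None of them passed the test (adjusted p = 0.459 for each by edgeR). In the same order the values were -3.15, -0.95, -0.50 and 8.05 with total-count scaling and -8.86, -0.41, -5.51 and 2.72 with exact tags only. For chr10_1724 the exact-tag value (SE 2.21, adjusted p = 0.222 by edgeR) lies at the floor. Its substitution was in nearly all of its ADSC2 counts and in all of its Exo-AT counts, so few exact tags remain. chr5_56436 and chr5_57841 stood at -0.69 (SE 0.67) and 0.53 (SE 0.71), within about 1 standard error of no change. A fit restricted to predicted hairpins found in both numberings, with every named hairpin, was added after the data were seen. Its common dispersion was 0.1251, and it called 2 of 26 predicted hairpins higher, beside 11.4% of all 210 tested, and 7 lower, beside 14.8%. The 2 higher were chr3_48532 and chr8_71405 (log2 fold change 2.54, SE 0.30), and the 7 lower included chr10_1724, chr7_68348 and chr2_38341 (adjusted p = 0.00639 for each of these 3 by edgeR). Also among the 7 were chr3_48327 and chr10_404, most of whose counts came from tags also assigned to named miRNAs in the same fit. With total-count scaling 6 were called higher, beside 23.8% of all 210, and 5 lower, beside 8.57%. With median-ratio scaling 5 were called higher, beside 17.1%, and 8 lower, beside 22.9%. The 26 were retained through a count in an Exo-AT library, and all of that library's named tags recur in the other. By this choice all 26 had counts in both Exo-AT libraries, and the difference between these libraries is the only spread the fit has. The low dispersion and the small p-values therefore depend on the choice, and these calls are a description of the 3 libraries.

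The replicate 2 libraries share a numbering and can be set side by side without the problem of the lists, but with 1 library a group and no test. Hairpins with at least 20 counts in the pair were compared, with counts under 3 set to 3. Scaled to named counts, 39 of 224 predicted hairpins (17.4%) were at least 4-fold higher in Exo-AT, beside 25.3% of all 388 hairpins, and 105 (46.9%) were at least 4-fold lower, beside 33%. The median log2 ratio was -1.66 for predicted and 1.25 for named hairpins. Scaled to assigned counts, 88 predicted hairpins (39.3%) were at least 4-fold higher, beside 54.1% of all, and 32 (14.3%) at least 4-fold lower, beside 9.28%. The medians were then 0.81 and 3.72. Changing the scale adds the same amount to every log2 ratio, so the sign for predicted hairpins depends on the scale chosen, and the gap between the 2 kinds is the same by construction.

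Over hairpins counted in both of a pair of libraries, the log2 shares of AT1 and AT2 had a Pearson r of 0.91 (n = 33 hairpins). ADSC2 had r of 0.58 with AT1 (n = 24) and 0.53 with AT2 (n = 230). Points within a pair share their libraries and their depth, and hairpins are not replicates, so these are descriptions.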

How the data were processed

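Small RNA of 15 to 35 nt was read for 36 cycles, per the labels' protocols. The values used are the whole-number counts per tag that the authors deposited, with the hairpin each tag aligned to. Reads of a tag with several places were divided between them, and each tag had at least 2 reads, per the file headers and tag names. Alignment was by Novoalign 2.07.11 to rn6, as far as the submitters' processing notes list tools and builds. How adaptors were trimmed, which miRNA release was taken and how hairpins were predicted is not given in the sources used here. For Exo-ADSCs replicate 1 the file is a summary without tag counts and was not used, nor was the table of the whole series.

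Predicted hairpins were features by sequence and named precursors by name, and counts were summed per feature. A feature that a library does not list was given 0 counts there. Positions were corrected for the 5 bases counted before each hairpin, and the notation of substitutions was checked on 6639 of 6639 single substitutions. Hairpins were folded with RNAfold 2.7.2 at default settings. Exo-AT was compared with Exo-ADSCs by edgeR 4.0.16 (R 4.3.3; quasi-likelihood, two-sided, TMM factors 0.208, 2.26 and 2.12), with its default expression filter (minimum count 10, minimum total 15) and Benjamini-Hochberg adjustment over all 402 hairpins tested, called at 0.05. The scripts were tested on simulated data. Groups and replicate numbers came from sample titles. The text names the 10 most counted predicted hairpins of each library, the 10 highest by mean share of those in all 3 libraries and those holding a RefSeq mature miRNA, and any other was chosen after its values were seen. The members, lists and naming rule were chosen with earlier results of these data known. Alternatives were other scalings, DESeq2 1.42.0, no filter, merged hairpins, subsets of tags and libraries left out.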

Additional observations from a re-analysis of the deposited data

How the results depend on the processing

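With only tags of 1 hairpin, distinct tags each counted once, only exact tags and only tags of 20 to 25 nt, the share of assigned counts on predicted hairpins was 86.9%, 59.9%, 22.96% and 16.8% in ADSC2 and 40.2%, 39.1%, 15.3% and 5.31% in AT1. In AT2 it was 23.3%, 37.9%, 12.4% and 5.33%. The order of Exo-ADSCs above both Exo-AT libraries was the same in each of these. The share of predicted counts at 21 to 23 nt was 0.615% and 5.93% in the replicate 2 libraries with tags of 1 hairpin, and 16.4%, 13.3% and 16.4% in the 3 libraries by distinct tags. It was 9.75%, 6.46% and 9.19% with exact tags, and 1.73% and 5.45% in ADSC2 and AT1 without the leading hairpin. The share with an alignment annotation was 97.1% and 69.996% in the replicate 2 libraries with tags of 1 hairpin. By distinct tags it was 66.9%, 57.7% and 57.6%, with tags of 20 to 25 nt 64.1%, 56.3% and 58.2%, and without the leading hairpin 92.6%, 64.98% and 62.9%. The leading hairpin held 52.8%, 39.6% and 16.4% with tags of 1 hairpin, 7.59%, 8.35% and 4.15% of distinct tags, and 16.99%, 29.2% and 21.3% with tags of 20 to 25 nt. With exact tags it held 21.4% and 18.8% in ADSC2 and AT1.

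Hairpins common to ADSC2 and AT1, to the replicate 2 libraries and to the Exo-AT libraries numbered 11, 118 and 13 with at least 10 counts, and identical predicted tags numbered 113, 410 and 259. DESeq2 called 5 predicted hairpins, which were all of its calls. The fit of hairpins found in both numberings, chosen after seeing the data, called 9 with TMM, 11 with total-count scaling and 13 with median-ratio scaling, of 55, 68 and 84 called in all. Total-count scaling, named-hairpin TMM, no filter, merged hairpins, named arms and the 3 subsets of tags called 0 predicted hairpins. An unadjusted p under 0.05 by edgeR was reached there by between 9 of 209 (tags of 1 hairpin) and 55 of 496 (no filter) predicted hairpins tested. In the same settings 8 of 133 and 13 of 302 named hairpins reached it. With total-count scaling it was 12 of 232 predicted and 59 of 170 named hairpins. The share was higher among predicted than named hairpins with no filter and lower in each other setting of this list. With tags of 20 to 25 nt, 5 named hairpins were called, 1 higher and 4 lower in Exo-AT. Of 28 named hairpins, the log2 fold change reversed with total-count scaling for chr10_404 (0.66), chr14_12634 (1.03), chr3_45065 (3.27), chr5_56436 (2.71) and chr6_62654 (1.24). It reversed with both numberings and total-count scaling for chr3_45065 (1.14) and chr5_56436 (0.63). For chr3_45065 it was 1.85 with tags of 1 hairpin and 0.0093 with named-hairpin TMM, for chr5_56436 it was 0.94 with tags of 20 to 25 nt, and for chr5_57841 it was -3.64 with exact tags. The cause was not tested. Leaving out an Exo-AT library leaves 1 a group, so no calls could be counted. Without AT2 the log2 fold change went from 7.48 to -4.37 for chr2_41589, from 3.10 to -8.43 for chr8_69167 and from 1.61 to -8.21 for chr7_68034, none of which AT1 lists. Without AT1 it went from -0.13 to 0.26 for chr3_45065, and 5 hairpins listed by AT1 alone had no counts left. No paired analysis was possible because tag counts were used for 1 Exo-ADSCs library, so the groups share 1 replicate number.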
